A study of Mus musculus with 9 samples.

Results

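Lyn, Blk, Fyn, Fgr, Lck and Yes1, which encode kinases of the Src family, and Csk, the kinase that restrains them, were followed in 3 groups of mouse B cells. The 7 genes were chosen by name, as a family with its regulator, and all 7 were found among the 22178 genes of the expression table and passed the filter for testing. RNA had been sequenced from 9 libraries, 3 per group, and values were TPM, each gene's share of the transcripts of a library after correction for transcript length. Splenic B2 cells, the conventional recirculating type, carried the strain label VH12B1-8/Vk4. B1 cells, which populate the body cavities, and B2B1 cells were both isolated from the peritoneal cavity under the strain label B1-8VH12/Vk4. In the mice that gave B2B1 cells, the B cell receptor (BCR) was switched by induction about 30 days before the cells were taken. All mice are labelled as backcrossed to C57BL/6. The labels do not give the age of the mice, the agent of the switch or the number of mice behind the 3 libraries of a group. The p-values therefore measure only the spread between these libraries, which may be technical in part.

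Src family kinases are membrane-anchored tyrosine kinases that act at the first step of antigen receptor signalling. When the BCR binds antigen, they phosphorylate the tails of its CD79 chains, to which the kinase Syk then binds, and Lyn also phosphorylates inhibitory receptors such as CD22, which recruit phosphatases. Csk phosphorylates a tyrosine near the carboxyl end of each Src family kinase, which folds the kinase into its inactive form, and the phosphatase CD45 removes that phosphate. RNA levels say nothing of this phosphorylation, which was not measured.

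The libraries held RNA of B cells. The 5 B cell identity genes Ms4a1, Cd79a, Cd79b, Pax5 and Cd22 summed to 7559 to 9615 TPM per library, against 6.70 to 20.4 TPM for 12 T cell markers and 2.92 to 5.22 TPM for 7 neutrophil markers. Pax5 averaged 395 TPM in B2, 187 in B2B1 and 243 in B1, and Cd22 681, 358 and 329 TPM. Both were called lower than in B2 in B2B1 (limma adjusted p = 1.17e-05 and 0.000688) and in B1 (0.000225 and 0.000507). The mean of Ms4a1 went the other way, at 1568, 1934 and 2176 TPM. The sum of 11 macrophage and monocyte markers was 2.37 to 3.75 TPM in B2, 22.2 to 48.9 TPM in B1 and 66.4 to 249 TPM in B2B1, the highest value being that of B2B1 library 1. The B2 markers Fcer2a and Cr2 summed to 1681 to 1921 TPM in B2 and to 3.24 to 20.4 TPM in the peritoneal groups, and the B1 markers Cd5, Spn, Zbtb32, Cd9 and Lgals1 to 32.9 to 35.6 TPM and to 1104 to 2181 TPM. Most of the peritoneal sum came from Lgals1, Zbtb32 and Cd9. Cd5 alone was at 0.609 to 1.09 TPM in B2, 1.22 to 1.85 TPM in B2B1 and 13.4 to 22.9 TPM in B1. TPM keep no read counts, so depth is unknown and no interval for counting error can be given. Xist stood at 0.461 TPM or less in 3 libraries (B2 library 2 and B2B1 libraries 1 and 2) and at 180.4 TPM or more in the other libraries. Xist is made by female cells, so the libraries within B2 and within B2B1 did not all come from the same mice. All B1 libraries had high Xist, so sex was not balanced between the groups. Tissue and strain label differ together with the cell type wherever a group is compared with B2, so these cannot be told apart. In bulk RNA, fewer cells of a type and less RNA per cell cannot be told apart either.

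Lyn, Lck and Fgr lie on mouse chromosome 4 in the genome build GRCm38 (GENCODE M21). Lyn spans chr4:3678115-3813122, Lck chr4:129548344-129573641 on the reverse strand and Fgr chr4:132974095-133001910. Blk spans chr14:63372836-63417037 on the reverse strand, Csk chr9:57626646-57653631 on the reverse strand, Fyn chr10:39368855-39565381 and Yes1 chr5:32611171-32687057. The labels do not say that counting used strand. The exons of Lyn share 248 of 4073 bases with Gm26857 and those of Yes1 share 635 of 7508 bases with Gm10461, both transcribed from the opposite strand, so their reads cannot be told apart there.

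Start-site windows are shown for the members that were called in both peritoneal groups against B2 and for which RefSeq (GRCm38.p6) gave a window, namely Lck, which was higher, and Fyn and Csk, which were lower. Each window holds the 250 bases before and the 50 bases after an annotated transcription start, written 5′ to 3′ on the gene's strand. RefSeq lists 2 windows each for Lck and Csk. Capitals mark AGGAAG on either strand, a hexamer found in many binding sites of ETS transcription factors. Lck is known for a distal and a proximal promoter, the first and second lines here.
Lck, chr4:129573592-129573891, reverse strand: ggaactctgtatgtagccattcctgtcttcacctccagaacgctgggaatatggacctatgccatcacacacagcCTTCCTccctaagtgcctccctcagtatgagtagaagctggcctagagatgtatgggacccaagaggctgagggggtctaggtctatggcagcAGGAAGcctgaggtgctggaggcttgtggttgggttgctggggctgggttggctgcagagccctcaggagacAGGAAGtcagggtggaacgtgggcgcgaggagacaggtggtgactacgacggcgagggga
Lck, chr4:129558323-129558622, reverse strand: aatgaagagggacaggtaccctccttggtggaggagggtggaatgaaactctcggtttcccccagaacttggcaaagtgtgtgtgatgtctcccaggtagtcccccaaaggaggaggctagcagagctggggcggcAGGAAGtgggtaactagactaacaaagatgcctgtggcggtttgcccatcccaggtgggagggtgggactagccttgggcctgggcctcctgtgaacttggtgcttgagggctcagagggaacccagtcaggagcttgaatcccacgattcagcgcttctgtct
Csk, chr9:57653582-57653881, reverse strand: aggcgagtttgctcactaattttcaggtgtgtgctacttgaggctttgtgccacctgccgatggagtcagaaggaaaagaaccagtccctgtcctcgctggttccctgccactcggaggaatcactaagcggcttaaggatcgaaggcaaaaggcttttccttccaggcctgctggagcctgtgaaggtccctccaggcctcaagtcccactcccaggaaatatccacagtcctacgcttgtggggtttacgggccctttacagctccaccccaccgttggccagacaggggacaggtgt
Csk, chr9:57645604-57645903, reverse strand: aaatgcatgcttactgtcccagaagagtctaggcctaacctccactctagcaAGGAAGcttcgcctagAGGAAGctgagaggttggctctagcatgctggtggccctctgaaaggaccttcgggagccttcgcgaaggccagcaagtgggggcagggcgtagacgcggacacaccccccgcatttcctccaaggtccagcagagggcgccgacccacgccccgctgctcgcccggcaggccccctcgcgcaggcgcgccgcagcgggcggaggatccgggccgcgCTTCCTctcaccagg
Fyn, chr10:39369549-39369848, forward strand: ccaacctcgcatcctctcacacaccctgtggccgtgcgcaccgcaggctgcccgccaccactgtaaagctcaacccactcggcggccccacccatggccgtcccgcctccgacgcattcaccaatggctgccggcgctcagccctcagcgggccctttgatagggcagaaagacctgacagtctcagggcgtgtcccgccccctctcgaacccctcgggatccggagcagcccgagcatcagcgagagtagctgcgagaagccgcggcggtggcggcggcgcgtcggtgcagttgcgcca
The hexamer occurred 3 times in the first Lck window and 1 time in the second, 0 times in the first Csk window and 3 times in the second, and 0 times in the Fyn window. Of all 32851 windows of this length in the table, 35.4% held it on either strand. GGGCGG, the GC box, was present in the second Lck window, the second Csk window and the Fyn window, and in 35.7% of all windows. CCAAT was present in the Fyn window and in 37.4% of all windows, and TATAAA, held by 13.6% of all windows, was in none of these 5. Gene-level TPM do not separate transcripts of the 2 starts of Lck or Csk. A match of letters is a description and shows no binding.

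Blk and Lyn made up nearly all RNA of the 6 Src family members described here in every group. In B2 cells Blk, a kinase largely restricted to the B lineage, was highest at 395 ± 4.72 TPM (mean ± SD, n = 3 here and below), followed by Lyn, the main kinase of BCR signalling in mouse B cells, at 296 ± 15.9 TPM. Csk came next at 267 ± 14.3 TPM. Fyn (26.8 ± 1.42 TPM), Fgr (23.1 ± 2.96), Lck (6.72 ± 0.308) and Yes1 (2.91 ± 0.465) were far lower. Neighbours in this order did not overlap between libraries, except Fyn and Fgr. In B2B1 cells the order was Blk, Lyn, Csk, Fgr, Lck, Fyn and Yes1, with overlap between Fgr and Lck, and in B1 cells it was Blk, Lyn, Csk, Fyn, Lck, Fgr and Yes1, with overlap between Fyn and Lck and between Fgr and Yes1. Blk and Lyn together held 91.7% to 92.4% of the summed TPM of the 6 Src family members in B2 libraries, 93.8% to 95.9% in B2B1 and 95.5% to 96.7% in B1.

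**Figure D1:**
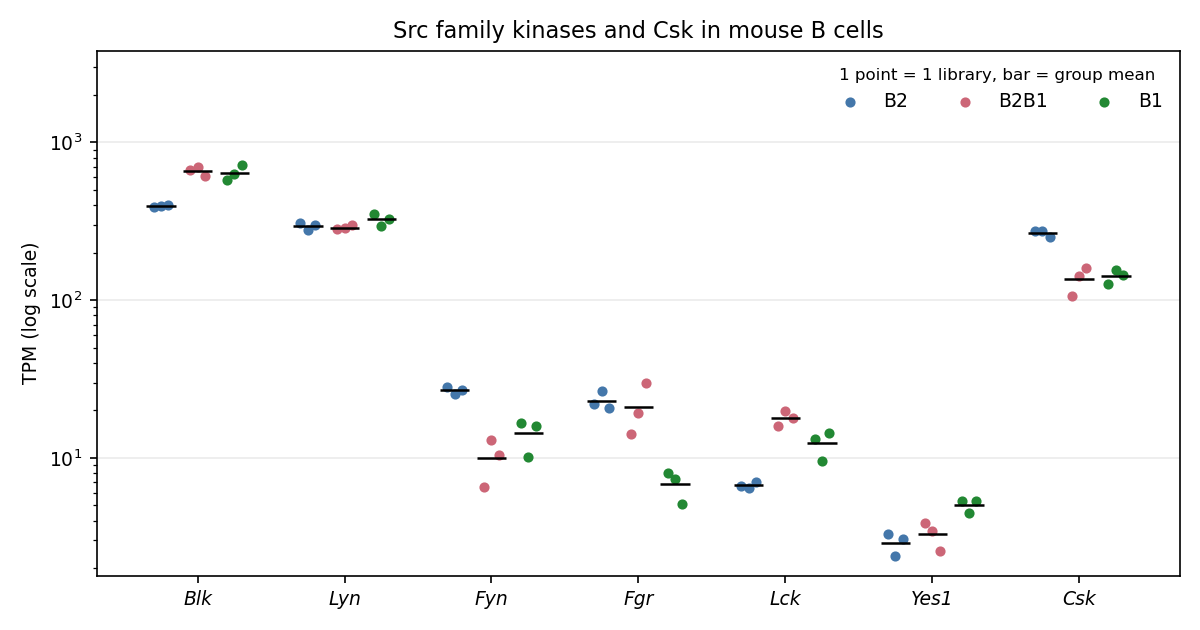
TPM of the 6 Src family kinases and Csk on a log axis, with 1 point per library and a bar at the mean of the 3 libraries of a group. Blk and Lck sit above B2 in both peritoneal groups, Fyn and Csk below it, Lyn lies near 300 TPM in all 3 groups, and Fgr is lowest in B1.

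Blk was higher in both peritoneal groups than in B2 cells. Its TPM was 391, 394 and 400.2 in the B2 libraries, 667, 693 and 615 in the B2B1 libraries and 576, 629 and 715 in the B1 libraries. Every peritoneal library stood above every B2 library, and the 2 peritoneal groups overlapped. The ratio of means was 1.62 in B1 against B2 (log2 fold change 0.69 ± 0.08 SE on the log2(TPM + 1) scale, on which changes of low genes are understated, limma adjusted p = 0.000133). It was 1.67 in B2B1 against B2 (log2 fold change 0.73 ± 0.08, limma adjusted p = 6.44e-05). Between B2B1 and B1 the log2 fold change of 0.04 had a 95% interval from −0.14 to 0.23 (limma adjusted p = 0.743).

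Lyn was nearly level across the groups. Its TPM was 310, 278 and 299 in B2, 281, 286 and 298 in B2B1 and 353, 295 and 328 in B1. The ranges of the 3 groups overlapped. In B1 against B2 the log2 fold change was 0.14 (95% interval −0.03 to 0.30, limma adjusted p = 0.156), and in B2B1 against B2 it was −0.03 (−0.20 to 0.13, limma adjusted p = 0.704), turning to 0.19 (adjusted p = 0.0635) with median-of-ratios scaling. The call of Lyn in B1 against B2 depended on B1 library 2, without which Lyn was called higher (log2 fold change 0.20, limma adjusted p = 0.0282), and on scaling, since median-of-ratios factors also made it higher (0.29, adjusted p = 0.0146). In B2B1 against B1 the log2 fold change was −0.17 (−0.34 to −0.00, limma adjusted p = 0.143), and it was called lower without B1 library 2 (−0.24, adjusted p = 0.0348).

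With Blk higher and Lyn level, the balance of these kinases differed between spleen and peritoneum. The ratio of Blk to Lyn was 1.26 to 1.42 in B2 libraries, 2.06 to 2.42 in B2B1 and 1.63 to 2.18 in B1. Neither peritoneal group overlapped B2, for which an exact permutation test with 3 libraries against 3 gives its smallest two-sided p of 0.1, so no call is possible by that test. Blk held 52.7% ± 1.21 of the summed TPM of the 6 kinases in B2, 65.9% ± 2.36 in B2B1 and 63.7% ± 3.87 in B1. The summed TPM was 750.3 ± 14.9 in B2, 999 ± 32.1 in B2B1 and 1004 ± 70.03 in B1, 1.33-fold and 1.34-fold above B2 (exact two-sided permutation p = 0.1 for each).

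Lck rose in both peritoneal groups. Lck is the Src family kinase that T cells use at their antigen receptor, and it has also been described in mouse B1 cells. Its TPM was 6.69, 6.43 and 7.04 in B2, 15.9, 19.8 and 17.9 in B2B1 and 13.3, 9.56 and 14.4 in B1. The 3 groups did not overlap, with B2B1 highest. The ratio of means was 1.85 in B1 against B2 (log2 fold change 0.78 ± 0.14, limma adjusted p = 0.00177) and 2.66 in B2B1 against B2 (1.29 ± 0.14, adjusted p = 6.55e-05).

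T cell markers differed among themselves, and their part in the level of Lck was not tested. The summed TPM of the 12 markers was 9.84 to 12.6 in B2, 6.70 to 10.7 in B2B1, where Lck was highest, and 17.4 to 20.4 in B1. Of these, 4 passed the filter on low values. Zap70, the kinase that acts after Lck in T cells, had the same order of groups as Lck, at 0 in every B2 library, 0.0468 to 0.0936 TPM in B1 and 0.159 to 0.356 TPM in B2B1. The means of Cd8b1, a CD8 chain, had that order too, at 0.381, 0.441 and 0.917 TPM, with overlapping libraries. Cd3e, a defining chain of the T cell receptor complex, averaged 0.0279 TPM in B2, 0.0227 TPM in B2B1 and 0.0262 TPM in B1. Cd3g, another chain of that complex, was at 0.122 ± 0.112 TPM in B2, 0.373 ± 0.128 TPM in B2B1 and 7.81 ± 2.51 TPM in B1, and was called higher in B1 against B2 (limma adjusted p = 5.26e-06). Cd3d, a further CD3 chain, was at 4.22, 4.33 and 6.76 TPM in B2, 1.93, 3.37 and 5.13 TPM in B2B1 and 6.40, 7.51 and 8.32 TPM in B1. It was called lower in B2B1 than in B1 (log2 difference −0.97, limma adjusted p = 0.0343), a call kept under 8 of 21 alternatives and lost without B2 library 1 or 2, B2B1 library 1 or 2, or any B1 library (−1.06 to −0.69 in these).

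Fyn, a kinase of lymphocytes and neurons that pairs with Lck in T cells, went the other way. Its TPM was 28.2, 25.3 and 26.9 in B2, 6.58, 13.0 and 10.5 in B2B1 and 16.7, 10.2 and 15.96 in B1. Every B2 library stood above every peritoneal library, and the peritoneal groups overlapped. Fyn was 1.87-fold lower in B1 than in B2 cells (log2 difference −0.89 ± 0.23, limma adjusted p = 0.0114) and 2.67-fold lower in B2B1 (−1.38 ± 0.23, adjusted p = 0.000813). In B2B1 against B1 its log2 fold change was −0.49 (95% interval −1.02 to 0.04, limma adjusted p = 0.178), and Fyn was called lower in 1 of the 21 alternatives run, which omitted both B1 library 2 and B2B1 library 1 (−0.45, adjusted p = 0.0319). The ratio of Fyn to Lck was 3.82 to 4.21 in B2, 1.07 to 1.26 in B1 and 0.413 to 0.657 in B2B1, so that Fyn RNA exceeded Lck RNA in the B2 and B1 libraries and was below it in the B2B1 libraries.

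Fgr separated the B2B1 cells from the B1 cells. Fgr is best known from neutrophils and macrophages. Its TPM was 22.0, 26.4 and 20.8 in B2, 14.1, 19.1 and 29.6 in B2B1 and 8.06, 7.37 and 5.10 in B1. The B1 libraries lay below all others, whereas B2 and B2B1 overlapped and the B2B1 libraries were spread widely. Fgr was 3.37-fold lower in B1 than in B2 cells (log2 fold change −1.63 ± 0.25, limma adjusted p = 0.000588) and 3.06-fold higher in B2B1 than in B1 (1.45 ± 0.25, adjusted p = 0.00493). In B2B1 against B2 the log2 fold change was −0.18 (95% interval −0.74 to 0.38, limma adjusted p = 0.538), and its sign turned with median-of-ratios scaling (0.03) and without B2B1 library 1 (0.05).

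Summed macrophage markers were higher in the peritoneal groups and highest in B2B1, and their part in the level of Fgr was not tested. Emr1, which encodes F4/80, was at 0.384 ± 0.0974 TPM in B2, 18.1 ± 3.89 TPM in B1 and 44.0 ± 6.91 TPM in B2B1. Lyz2, the lysozyme of phagocytes, was at 181, 22.3 and 44.5 TPM in B2B1 libraries 1, 2 and 3. It was at 0.424 to 1.52 TPM in B2 and 1.22 to 30.9 TPM in B1. Fgr was at 14.1, 19.1 and 29.6 TPM in B2B1 libraries 1, 2 and 3. Csf1r, the receptor for the macrophage growth factor, was at 0.141 to 0.163 TPM in B2 and 0.0837 to 0.448 TPM in B1. In B2B1 it was at 2.13 TPM in library 1 and at 0.516 and 0.458 TPM in libraries 2 and 3. The 7 neutrophil markers summed to under 5.3 TPM in every library. Csf3r held most of that sum, averaging 2.98 TPM in B2, 3.31 TPM in B2B1 and 4.03 TPM in B1. S100a8, Mpo, Elane and Ltf were listed at 0 in every peritoneal library, and S100a8 also in B2 libraries 1 and 3. S100a9 was at 0.873 TPM in B1 library 2. Camp was at 0.268 TPM in B2B1 library 1 and 0.243 TPM in B1 library 3.

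Yes1, a broadly expressed member, had the lowest mean of the 6 in every group. Its TPM was 3.28, 2.39 and 3.07 in B2, 3.86, 3.44 and 2.58 in B2B1 and 5.32, 4.47 and 5.30 in B1. B1 libraries stood above all others. Yes1 was 1.73-fold higher in B1 than in B2 cells (log2 fold change 0.63 ± 0.15, limma adjusted p = 0.00717). In B2B1 against B2 the log2 fold change was 0.13 (95% interval −0.21 to 0.47, limma adjusted p = 0.470).

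**Figure D2:**
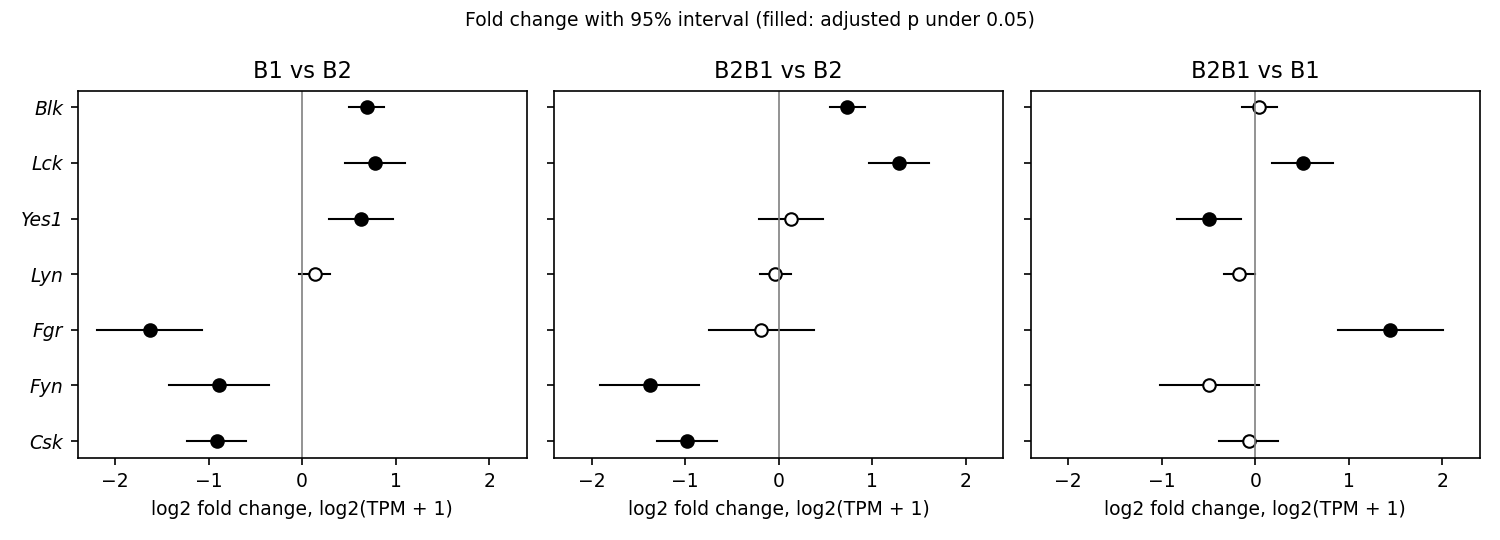
Log2 fold change of each member on the log2(TPM + 1) scale in the 3 comparisons, with 95% intervals from limma and filled points where the adjusted p was under 0.05. The intervals of Blk, Lck, Fyn and Csk lie off 0 in both comparisons with B2, and that of Fgr lies off 0 in both comparisons with B1.

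Csk, the kinase that holds the family inactive, fell in both peritoneal groups. Its TPM was 275, 276 and 250.3 in B2, 107, 142 and 161 in B2B1 and 127, 155 and 143 in B1. Every B2 library stood above every peritoneal library, and the peritoneal groups overlapped. Csk was 1.88-fold lower in B1 (log2 fold change −0.91 ± 0.14, limma adjusted p = 0.000617) and 1.95-fold lower in B2B1 (−0.98 ± 0.14, adjusted p = 0.000281). Between B2B1 and B1 the log2 fold change was −0.07 (95% interval −0.38 to 0.25, limma adjusted p = 0.768). Relative to the summed TPM of the 6 Src family members, Csk stood at 0.331 to 0.376 in B2 libraries, 0.108 to 0.165 in B2B1 and 0.130 to 0.162 in B1. The mean of this ratio was 2.51-fold lower in B1 and 2.601-fold lower in B2B1 than in B2 (exact two-sided permutation p = 0.1 each, the smallest the design allows). A ratio within a library does not depend on the scaling between libraries.

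**Figure D3:**
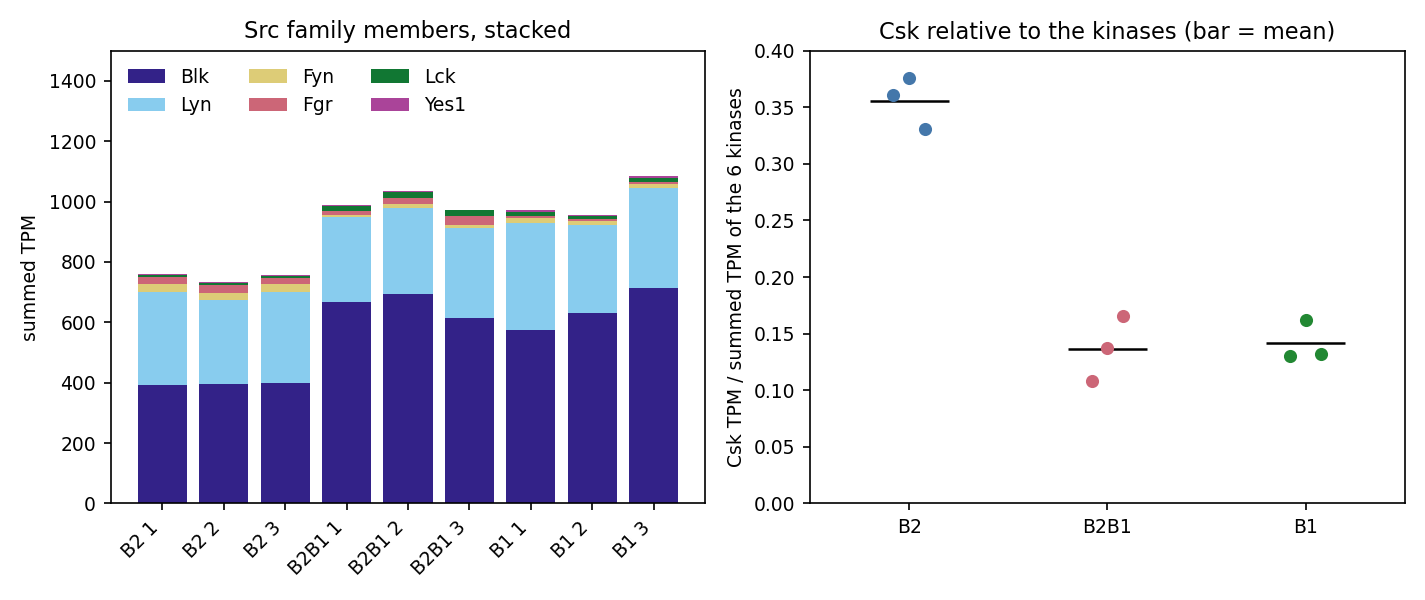
Left, TPM of the 6 Src family members stacked for each library. Right, TPM of Csk divided by that sum, with 1 point per library and a bar at the mean. The sums lie at 733 to 761 TPM in B2 and at 956 to 1084 TPM in the peritoneal libraries, and the Csk ratio lies at 0.331 or more in B2 and at 0.165 or less elsewhere.

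Counted over the 7 genes, 3 were called higher (Blk, Lck, Yes1) and 3 lower (Fgr, Fyn, Csk) in B1 against B2, where 18.0% of all 11099 tested genes were called higher and 33.9% lower. The groups did not overlap for these 6 members, as for 61.7% of all genes. In B2B1 against B2, 2 were called higher (Blk, Lck) and 2 lower (Fyn, Csk), against 21.0% and 42.0% of all genes. The groups did not overlap for these 4 members, as for 72.2% of all genes. With calls so common in both comparisons (51.9% and 63.0% of genes in either direction), these counts say little about the family as such. The comparisons share the B2 libraries, so their similarity is no independent support. The median log2 fold change over the 7 members was 0.14 in B1 and −0.03 in B2B1, beside −0.14 and −0.19 over all genes.

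B2B1 cells differed from B1 cells in Fgr and, less stably, in Lck and Yes1. In this comparison, which no B2 library enters except through the shared estimate of spread, 2 of the 7 were called higher (Fgr and Lck) and 1 lower (Yes1), against 6.93% and 12.1% of all genes (19.0% in either direction). The groups did not overlap for these 3 members, as for 35.7% of all genes. Lck was 1.44-fold higher in B2B1 (log2 fold change 0.51 ± 0.14, limma adjusted p = 0.0393) and Yes1 was 1.53-fold lower (−0.50 ± 0.15, adjusted p = 0.04996). The Lck call was lost under 11 of 21 alternatives, including the omission of any B2 library, B2B1 library 2 or 3, or B1 library 1 or 2, with log2 fold changes from 0.34 to 0.62 over all of them. The Yes1 call was lost under 15 of 20, including the omission of any B2 library, B2B1 library 2 or 3, or B1 library 1 or 3, with log2 fold changes from −0.66 to −0.37. The Fgr call held under all 21 (highest limma adjusted p = 0.0259).

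Other related kinases were low. Src itself averaged 0.341 TPM in B2, 0.175 in B2B1 and 0.104 in B1. Of the more distant relatives, Srms (6.89, 1.48 and 4.40 TPM in B2, B2B1 and B1) and Ptk6 (1.90, 0.424 and 0.770 TPM) were called lower in B2B1 against B2 (limma adjusted p = 0.000344 and 0.00344). Ptk6 was also called lower in B1 against B2 (log2 difference −0.68, limma adjusted p = 0.0286), a call kept under 13 of 20 alternatives and lost without B2 library 1 or 3 or any B1 library (−0.70 to −0.54 in these). Srms was called lower in B2B1 than in B1 (−1.16, limma adjusted p = 0.0142). It was not called with a term for Xist in the fit (−1.12, adjusted p = 0.0811) or without B1 library 1 (−1.01, adjusted p = 0.052). Frk and Matk did not reach the filter.

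Genes that act on the tail and activation loop of these kinases moved in both directions. Of 16 listed, B1 cells had 6 called higher and 4 called lower than in B2, and B2B1 cells had 4 and 7 (6 higher and 4 lower there with median-of-ratios scaling). Over all genes, 18.0% were called higher and 33.9% lower in B1, and 21.0% and 42.0% in B2B1. Their median log2 fold changes were −0.05 and −0.14, beside −0.14 and −0.19 for all genes. Pag1, a membrane adaptor that recruits Csk to its substrates, fell furthest. It stood at 73.9, 67.9 and 78.8 TPM in B2, 1.85, 1.79 and 1.64 TPM in B2B1 and 5.11, 4.89 and 5.81 TPM in B1. Pag1 was 14.0-fold lower in B1 (log2 fold change −3.57 ± 0.09, limma adjusted p = 1.70e-08) and 41.8-fold lower in B2B1 (−4.75 ± 0.09, adjusted p = 5.01e-09), and it was lower in B2B1 than in B1 (−1.18 ± 0.09, adjusted p = 0.000163). The 3 groups did not overlap.

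A pair of phosphatases that act on the kinases in opposite ways also differed. Ptprc, the gene of CD45, which removes the inhibitory tail phosphate, was at 699 ± 31.2 TPM in B2, 311 ± 39.8 in B2B1 and 350.1 ± 25.7 in B1 (log2 fold change −1.17 ± 0.09 in B2B1 and −0.996 ± 0.09 in B1 against B2, limma adjusted p = 9.19e-06 and 3.47e-05). Ptpn22, a phosphatase that binds Csk and acts on the activation loop, was named here after its values were seen. It stood at 39.1, 27.3 and 72.1 TPM in B2, 404, 289 and 444 TPM in B2B1 and 387, 345 and 478 TPM in B1. That was 8.21-fold and 8.74-fold above B2 (log2 fold change 3.10 ± 0.31 and 3.20 ± 0.31, limma adjusted p = 3.51e-05 and 4.17e-05). Ptpn6, the SHP-1 phosphatase recruited by inhibitory receptors, was 1.99-fold lower in B2B1 and 1.78-fold lower in B1, and Ptpn1 was 2.93-fold and 2.42-fold higher. Ptprj, a further phosphatase of the list, was called higher than in B2 in both groups. It was 1.55-fold higher in B2B1 (limma adjusted p = 0.0025) and 1.98-fold higher in B1 (adjusted p = 0.000237).

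**Figure D4:**
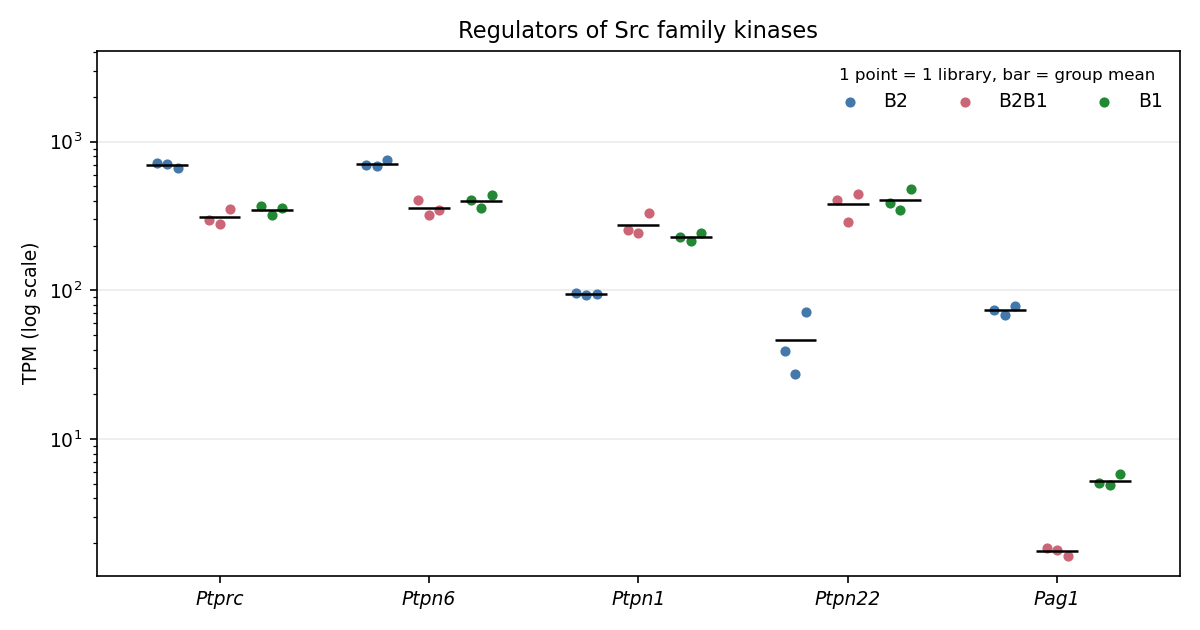
TPM of 5 regulators of the family on a log axis, with 1 point per library and a bar at the group mean. Ptprc, Ptpn6 and Pag1 lie lower in both peritoneal groups than in B2, while Ptpn1 and Ptpn22 lie higher, and Pag1 spans 1.64 to 78.8 TPM.

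Among the targets and partners through which the kinases activate B cells, calls in the peritoneal groups were mostly lower, as they were over all genes (33.9% lower and 18.0% higher in B1, 42.0% and 21.0% in B2B1). Of 14, 6 were called lower and 1 higher in B1 against B2, and 10 lower and 1 higher in B2B1 against B2. With median-of-ratios scaling these were 4 and 2, and 6 and 2. The median log2 fold changes were −0.20 and −0.32, beside −0.14 and −0.19 for all genes. Cd79a and Cd79b, the BCR chains that the kinases phosphorylate, did not pass in either comparison, but Cd79b was called higher in B2B1 with median-of-ratios scaling (0.43 on the log2 scale, limma adjusted p = 0.00589) or without B1 library 1 or 2 (0.20, adjusted p = 0.0441 and 0.0269), and in B1 without B1 library 2 (0.22, adjusted p = 0.0378). Cd79a was at 2856 ± 75.4 TPM in B2, 2800.0 ± 199 in B2B1 and 2811 ± 370.4 in B1. Syk, which binds the phosphorylated chains, was the member that was higher, at 667 ± 96.3, 1002 ± 146 and 1087 ± 155 TPM. Cd81, a tetraspanin of the B cell surface, was at 255 ± 9.63, 206 ± 14.5 and 157 ± 3.55 TPM in B2, B2B1 and B1, and was called lower in B1 (log2 difference −0.69 ± 0.06, limma adjusted p = 2.44e-05) and in B2B1 (−0.30 ± 0.06, adjusted p = 0.00231). With median-of-ratios scaling the value in B2B1 did not pass (−0.08, adjusted p = 0.353). Pik3ap1, the adaptor BCAP that links the BCR to PI3 kinase, was 3.86-fold lower in B2B1 and 3.32-fold lower in B1. Blnk, the scaffold below Syk, and Btk, a kinase that Src family members activate, were 2.37-fold and 1.76-fold lower in B2B1 and 1.72-fold and 1.61-fold lower in B1.

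Inhibitory receptors and their effectors, are the other class of Lyn targets. Of 13 tested, B1 cells had 1 called higher and 6 called lower than in B2, and B2B1 cells had 1 and 8, beside 18.0% and 33.9%, and 21.0% and 42.0%, of all genes. With median-of-ratios scaling the counts were 4 and 4, and 3 and 6. The median log2 fold changes were −0.25 and −0.51, beside −0.14 and −0.19 for all genes. Cd72 was at 417 ± 10.9 TPM in B2, 79.2 ± 14.5 in B2B1 and 27.9 ± 9.78 in B1. It was 5.26-fold lower in B2B1 and 14.9-fold lower in B1 than in B2, and 2.84-fold higher in B2B1 than in B1 (limma adjusted p = 1.49e-05, 1.09e-06 and 0.00188). Cd5, the member that was higher in B1, rose from 0.874 ± 0.243 TPM in B2 to 18.8 ± 4.88 in B1. In B2B1 it was at 1.46 ± 0.338 TPM and did not pass (limma adjusted p = 0.119). With median-of-ratios scaling that value passed (0.51, adjusted p = 0.0456). Dok2, an adaptor that Src family kinases phosphorylate, was the member that was higher in B2B1, at 13.3 ± 3.73 TPM against 5.68 ± 1.83 in B2. In B1 it was at 8.42 ± 1.34 TPM and did not pass against B2 (limma adjusted p = 0.0881). That value passed with median-of-ratios scaling (adjusted p = 0.0345), with the replicate block (0.0119) and without B2 library 1 (0.0319). B2B1 against B1 did not pass for Dok2 (adjusted p = 0.112), except with the replicate block (0.0239). Fcgr2b, the inhibitory Fc receptor, did not pass against B2 in either group. Cd300a and Ceacam1, both receptors with inhibitory motifs, were 2.44-fold and 2.06-fold lower in B2B1 than in B2. In B1 they were 1.57-fold and 1.26-fold lower than in B2 (limma adjusted p = 0.00284 and 0.0415). The call of Ceacam1 in B1 was kept under 8 of 21 alternatives.

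**Figure D5:**
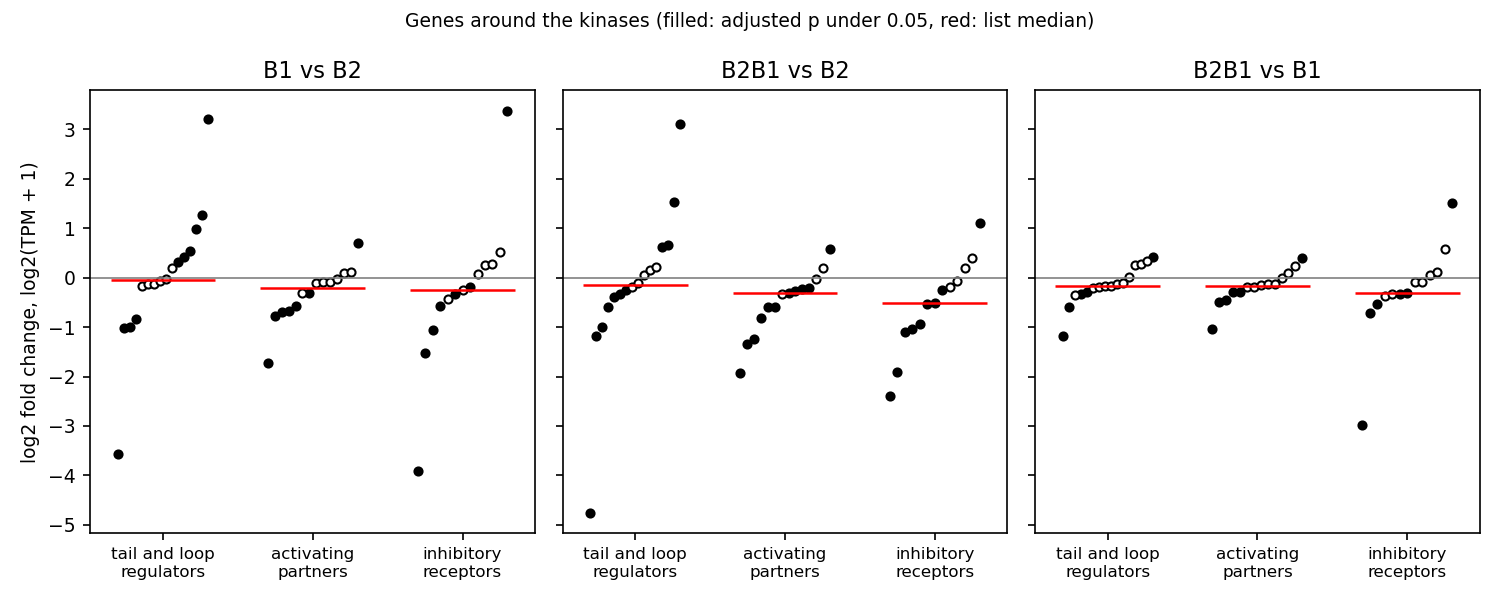
Log2 fold change of each tested gene of 3 lists around the kinases in the 3 comparisons, filled where the adjusted p was under 0.05, with a red line at the list median. In both comparisons with B2, Pag1 is the lowest and Ptpn22 the highest of the tail and loop regulators, and Cd72 is the lowest of the inhibitory receptors.

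The genes most like each member were found by Pearson's r of log2(TPM + 1) over the 9 libraries. These libraries fall into 3 groups, so r mainly reflects the group means, and it is given as a description. Blk was most like Tppp3, Nhsl2 and Tmem41a (r = 0.990, 0.989 and 0.986), and Csk was most like Rassf7, Fam179b and Midn (0.991, 0.986 and 0.983). Lck was most like Vat1, Galc and Slc35e4 (0.986, 0.984 and 0.984), and Fyn was most like Zfp655, Cog3 and Foxj2 (0.988, 0.985 and 0.984). For Fgr the genes were Sap30, Gabarapl1 and Tmem50b (0.966, 0.965 and 0.956), and for Yes1 they were Dopey2, Nbeal2 and Tep1 (0.951, 0.950 and 0.946). Tppp3, for example, was at 0.367, 43.8 and 41.9 TPM in B2, B2B1 and B1, and Midn at 37.2, 14.4 and 13.7 TPM.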

How the data were processed

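The submitters' processing notes name CASAVA 1.8.2, kallisto and mm10, without roles. No source used here gives the kallisto version, its transcript set or how transcripts were summed to genes. TPM were computed by the authors and deposited for 22178 genes in 9 libraries, which sum to 894515 to 943043 TPM per library. Per the labels, libraries were made with an Illumina TruSeq RNA kit. No pair of libraries was identical (0 of 36).

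Tests used log2(TPM + 1) of the 11099 genes whose mean reached 1 TPM. The 3 comparisons were fitted with limma 3.58.1 in R 4.3.3 (eBayes with trend, a single model over all libraries, no covariate). Two-sided p-values were adjusted over all tested genes (Benjamini-Hochberg), and a gene was called under 0.05. The fit was tested on simulated data. TPM being no counts, no count model was used.

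Between libraries of equal replicate number, deviations from group means correlated between −0.0584 and 0.123 across genes. Libraries of unequal number were not compared in this way, so these values do not settle whether equal numbers are pairs. The labels do not tie equal numbers together.

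Members and gene lists were chosen with earlier results of these data known. Per list, up to 4 genes with the smallest adjusted p are named, and for each called member the 3 most similar genes, leaving out numbered gene models, immunoglobulin and mitochondrial genes. Src, Ptpn22, Ptprj, Syk, Dok2, Cd79a, Cd79b, Fcgr2b, Cd3e, Zap70, Cd8b1, Thy1, Ncr1, Csf1r and S100a8 were named with their values already known. The same holds for Eomes, Klrb1c, Klre1, Klra8, Gzma, Nkg7, S100a9, Mpo, Elane, Ltf and Camp. The alternatives were other pseudocounts (0.1 and 0.5), no filter or a mean of at least 5 TPM, median-of-ratios and quantile scaling, separate fits, library weights, no trend, a replicate block, a term for Xist, and omission of libraries. Coordinates come from GENCODE M21. Figures used Python 3.11.15 and matplotlib 3.10.9. Some genes of the family and of the lists are not reported here.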

Additional observations from a re-analysis of the deposited data

How the results depend on the processing

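The calls of the 7 members against B2 held under nearly all 21 alternatives. In B2B1 against B2 all 146 recomputed member values kept their call, and in B1 against B2 143 of 146 did, the other 3 being gains of Lyn. With a minimum of 5 TPM, Yes1 was not tested. In B2B1 against B1, 118 of 146 kept it. There the count called higher, 2, became 1 with no filter, with only the 2 groups in the fit, with the replicate block (adjusted p = 0.0609 for Lck) and with the Xist term (0.127), and it ranged from 1 to 2 with a library left out. The count called lower, 1, became 0 with a pseudocount of 0.1 or 0.5, with no filter, with a minimum of 5 TPM, with median-of-ratios or quantile scaling, with only the 2 groups, with the replicate block (adjusted p = 0.0632 for Yes1) and with the Xist term, and 2 when B1 library 2 and B2B1 library 1 were omitted together. With a library left out it ranged from 0 to 2. The replicate block changed no other member's call. With a minimum of 5 TPM fewer genes were tested; elsewhere the cause was not tested.

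The log2 ratio of the summed TPM of the 6 Src family members was 0.42 for B1 and 0.41 for B2B1 against B2 and −0.01 for B2B1 against B1. It moved to 0.580, 0.642 and 0.062 with median-of-ratios scaling. Median-of-ratios scaling shifted the median over all tested genes from −0.14 to 0.01 (B1 against B2) and from −0.19 to 0.02 (B2B1 against B2), and the calls from 2003 higher and 3762 lower to 2843 and 2464, and from 2332 and 4663 to 3494 and 3031. For B2B1 against B1 the calls went from 769 and 1339 to 1087 and 894. Among genes with few TPM, such as Yes1, the unknown depth limits what can be said.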

Other observations

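Single T cell and NK cell genes differed between the groups, and markers of the same cell type did not all move together. Cd3g reached 10.7, 6.62 and 6.12 TPM in the B1 libraries, with Cd3e at 0.0787 TPM or less there, Thy1 listed at 0 and Cd3d at 6.40 TPM or more. Prf1, the gene of perforin, averaged 13.7 TPM in B2, 0.537 TPM in B2B1 and 0.971 TPM in B1. Eomes also had its highest mean in B2, at 0.513 TPM against 0.313 TPM in B2B1 and 0.364 TPM in B1. Klrb1c, Gzma and Klra8 did too, at 0.0430, 0.0447 and 0.0381 TPM in B2. Ncr1 and Nkg7 were highest in B2B1, at 0.0501 and 0.235 TPM, and Ncr1 was listed at 0 in B2. Klre1 was listed at 0 in B2 and B2B1 and averaged 0.0444 TPM in B1. Cd8a was at 1.57 to 2.06 TPM in all 9 libraries. Lat, an adaptor that Src family signals reach through other kinases in T cells, averaged 3.51 TPM in B2, 0.735 TPM in B2B1 and 0.554 TPM in B1.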
